A study of Mus musculus with 6 samples.

Results

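The endoplasmic reticulum (ER) stress and amino acid response genes described here were Hspa5, Xbp1, Atf4, Trib3, Chac1, Herpud1, Sdf2l1, Dnajb9, Asns and Nupr1. These 10 genes were taken by symbol from the 31055 features of 1 single-cell count matrix of Lkb1-XTR mouse lung tumour cells, and all 10 were found. Of 16017 cells in the matrix, 12183 had at least 500 genes and at most 20% of unique molecular identifiers (UMIs, 1 per captured transcript) from mitochondrial genes. Cells were gated on UMIs per 10000 of marker genes, none of which belongs to the panel. The alveolar type II (ATII) gate required Sftpc of at least 500, Hopx under 2 and Krt8 plus Krt18 under 50, and was split at a Lyz2 level of 100 into 3429 Lyz2-high and 3546 Lyz2-low cells. The alveolar type I (ATI) gate required Hopx of at least 15 with the same keratin limit and held 956 cells. The keratin-high gate required Krt8 plus Krt18 of at least 50 and held 1183 cells, and 3069 retained cells fell outside the 4 gates.

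Unfolded protein in the ER is sensed by IRE1, PERK and ATF6. IRE1 splices Xbp1 mRNA, which then encodes an activator of chaperone and degradation genes; PERK phosphorylates eIF2alpha, which favours translation of ATF4; and ATF6 is cleaved to a factor that acts on chaperone promoters. Amino acid shortage reaches the same ATF4 step through the kinase GCN2, so that Asns, Trib3, Chac1 and Nupr1 answer to either input. ATII cells, which make surfactant proteins in bulk, are a secretory cell type in which this machinery is active without injury. Counts at the 3′ end do not show Xbp1 splicing, and ATF4 is controlled largely at translation, so neither factor's activity was measured here.

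The tumours grew for 20 weeks after Lenti-Cre was given into the trachea of KrasLSL-G12D;Lkb1XTR/XTR;Rosa26LSL-tdTomato mice, and these alleles, including the XTR allele of Lkb1 (Stk11), were shared by all groups. Cre inverts a gene trap with a GFP reporter in the first intron, which cuts the Lkb1 transcript short, and FLPo-ERT2 with tamoxifen removes the trap again. The labels gave 3 Restored mice, each with FLPo-ERT2 and tamoxifen in 4 mg doses for 2 weeks, and 3 NonRestored mice, of which 1 had tamoxifen without FLPo-ERT2, 1 vehicle without it and 1 vehicle with it. Each cohort held 2 males and 1 female, and dissociated tumours were sorted for tdTomato and against CD45, CD31, F4/80 and Ter119. By the study's methods the mice were young adults when tumours were initiated, and the age of each mouse was not used here. The columns of the matrix carried no mouse, so Restored and NonRestored mice were not compared, the matrix counted as 1 sample without replicates, and every interval below is a 95% interval of counting error only.

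Cells were also classed by the transcript they held. A GFP-positive cell had at least 1 GFP UMI and no Stk11 UMI, and a Stk11-positive cell the reverse. Within the gates 2626 cells were GFP-positive, 2784 were Stk11-positive, 20 had both and 3684 had neither. These classes may come from different mice, sexes, treatments or tumours, and such differences cannot be told apart from the trap. A difference between classes or gates is therefore a difference between 2 sets of cells in a single matrix.

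Median depth was 24514 UMIs in Lyz2-high ATII, 18716 in Lyz2-low ATII, 11796 in ATI and 23490 in keratin-high cells. Markers that no gate used followed the gate names: Ager stood at 5902 UMIs per 1000000 UMIs of the gate (CPM) in the ATI gate and 668 to 1678 CPM in the others, while Cldn4 stood at 428 CPM in the keratin-high gate and 2.41 to 49.6 CPM in the others. Sftpc was still 47497 CPM in the ATI gate and 19250 CPM in the keratin-high gate. Summed levels of 5 fibroblast markers were 9.82 to 53.8 CPM in the gates and 3905 CPM outside them. The summed levels of 4 endothelial markers (1.85 to 4.42 CPM) and 6 immune markers (2.32 to 5.13 CPM) were low in each gate, and Cd3e had no UMI in any gate.

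Short stretches of promoter show where the letters recognised by the factors of these pathways stand in the panel. The 4 motifs below were searched on both strands of the RefSeq promoters (250 bases before to 50 after the annotated start) of build GRCm38.p6, in which all 10 genes had an entry. A gene was counted if any of its entries matched, while the percentages are over entries. The panel was chosen as genes of these responses, so setting its counts beside the percentages is not a test. The ER stress response element ERSE, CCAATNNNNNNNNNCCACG, is bound by ATF6 with NF-Y and was found in Hspa5 alone of the panel and in 0.119% of 32851 promoters. ERSE-II, which reads ATTGG, any base and CCACG, was found in Herpud1 and in 0.0365% of promoters. The C/EBP-ATF response element CARE, TGATGNAA, through which ATF4 acts, was found in Trib3, Chac1, Herpud1, Asns and Nupr1, or 5 of 10, and in 3.97% of promoters. The XBP1 element UPRE, TGACGTGG, was in none of the 10 and in 0.676% of promoters. Each line below gives 30 bases of the gene's own strand with the match in capitals, and a CARE on the opposite strand reads there as its reverse complement.
Hspa5, ERSE, chr2:34772019-34772048, + strand: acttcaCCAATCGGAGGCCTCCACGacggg
Herpud1, ERSE-II, chr8:94386367-94386396, + strand: ccgggcgctgATTGGGCCACGttggacact
Herpud1, CARE on the opposite strand, chr8:94386306-94386335, + strand: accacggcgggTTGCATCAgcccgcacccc
Asns, CARE, chr6:7693214-7693243, - strand: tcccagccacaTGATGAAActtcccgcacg
Trib3, CARE on the opposite strand, chr2:152344028-152344057, - strand: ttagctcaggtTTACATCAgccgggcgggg
Chac1, CARE on the opposite strand, chr2:119351038-119351067, + strand: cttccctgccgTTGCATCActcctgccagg
Nupr1, CARE on the opposite strand, chr7:126625562-126625591, - strand: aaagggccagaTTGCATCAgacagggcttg
Herpud1 is the one gene of the panel with both kinds of element. Counted from the annotated start, the ERSE of Hspa5 ran from base -65 to -47, the ERSE-II of Herpud1 from -52 to -42 and its CARE from -112 to -105. The CARE ran from -23 to -16 in Asns, from -110 to -103 in Nupr1, from -193 to -186 in Chac1 and from 14 to 21, inside the RefSeq transcript, in Trib3. In the GENCODE M21 annotation Trib3 begins at chr2:152344032 on the - strand, and the match lies upstream of that start. A match is a run of letters and not a measured site.

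Hspa5 encodes BiP, the main Hsp70-type chaperone of the ER and the regulator that holds the 3 sensors inactive. Its level was 499 CPM (495 to 504) in Lyz2-high ATII, 571 (566 to 577) in Lyz2-low ATII, 649 (635 to 662) in ATI and 1208 (1196 to 1220) in keratin-high cells. The intervals of the 4 gates did not overlap, and the keratin-high gate stood apart from the other 3. The median keratin-high cell held 693 CPM, and the 10% of cells with the most Hspa5 UMIs held 39.2% of them, against 28.3% in the Lyz2-high ATII gate.

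Sdf2l1, an ER protein that works with BiP on misfolded clients, had the same order of gates. It stood at 18.8 CPM (17.9 to 19.7) in Lyz2-high ATII, 31.6 (30.3 to 32.9) in Lyz2-low ATII, 43.9 (40.4 to 47.6) in ATI and 78.4 (75.3 to 81.6) in keratin-high cells. After thinning, 7.78%, 10.0%, 12.2% and 21.5% of cells had a Sdf2l1 UMI, in that order. Without thinning the shares were 28.7%, 27.6%, 26.6% and 49.7%. No cell type that lacks these genes was available to set the background of free RNA.

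Herpud1, a membrane protein that assists ER-associated degradation, had the opposite order. Its level was 268 CPM (264 to 271) in Lyz2-high ATII, 197 (194 to 201) in Lyz2-low ATII, 117 (111 to 123) in ATI and 96.6 (93.1 to 100) in keratin-high cells. Dnajb9 (ERdj4), a co-chaperone of BiP and a target of XBP1, ran from 134 CPM (132 to 137) in Lyz2-high ATII through 104 (102 to 107) in Lyz2-low ATII to 82.2 (79.0 to 85.5) in keratin-high and 68.0 (63.6 to 72.5) in ATI cells. Xbp1 was 137 CPM (134 to 139), 124 (121 to 126), 115 (111 to 119) and 79.8 (75.1 to 84.8) in the same order of gates. The reads of Herpud1 and Dnajb9 could overlap the annotated genes Gm15890 and Mir5627 on the other strand.

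Atf4, the transcription factor of the integrated stress response, was the flattest gene of the panel between gates. Its level was 202 CPM (199 to 205) in Lyz2-high ATII, 201 (197 to 204) in Lyz2-low ATII and 208 (202 to 213) in keratin-high cells, and these intervals overlapped in each pair. The ATI gate was lower, at 132 CPM (126 to 138). Highest over lowest gate gave a ratio of 1.58, against 10.1 for Nupr1.

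The genes that ATF4 acts on spread further. Asns, which makes asparagine, was 50.7 CPM (49.2 to 52.2) in Lyz2-high ATII, 43.3 (41.8 to 44.8) in Lyz2-low ATII, 23.2 (20.6 to 25.9) in ATI and 63.6 (60.9 to 66.5) in keratin-high cells. Trib3, a pseudokinase that restrains ATF4 and AKT, was 18.1 CPM (17.3 to 19.1), 14.6 (13.8 to 15.6), 5.25 (4.09 to 6.63) and 14.0 (12.7 to 15.4), and its intervals overlapped between the Lyz2-low ATII and keratin-high gates. Chac1, which degrades glutathione, was 7.68 CPM (7.11 to 8.28), 5.02 (4.52 to 5.56), 1.95 (1.27 to 2.85) and 4.34 (3.63 to 5.14), from 26 UMIs in the whole ATI gate.

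Nupr1, a small chromatin-associated protein induced by many stresses, had the widest range of the panel. It was 747 CPM (741 to 753) in Lyz2-high ATII, 411 (406 to 416) in Lyz2-low ATII, 74.1 (69.6 to 78.9) in ATI and 519 (511 to 527) in keratin-high cells. In the keratin-high gate the level rested on a minority of cells: the median cell held 69.9 CPM, and after thinning the top 10% of cells held 69.2% of the UMIs. In the Lyz2-high gate the median cell held 567 CPM, and after thinning the top 10% held 35.9%. After thinning, 81.8% of Lyz2-high, 57.8% of Lyz2-low, 41.9% of keratin-high and 10.7% of ATI cells had a Nupr1 UMI, and the unthinned shares were 96.4%, 77.7%, 62.7% and 19.7%.

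**Figure D1:**
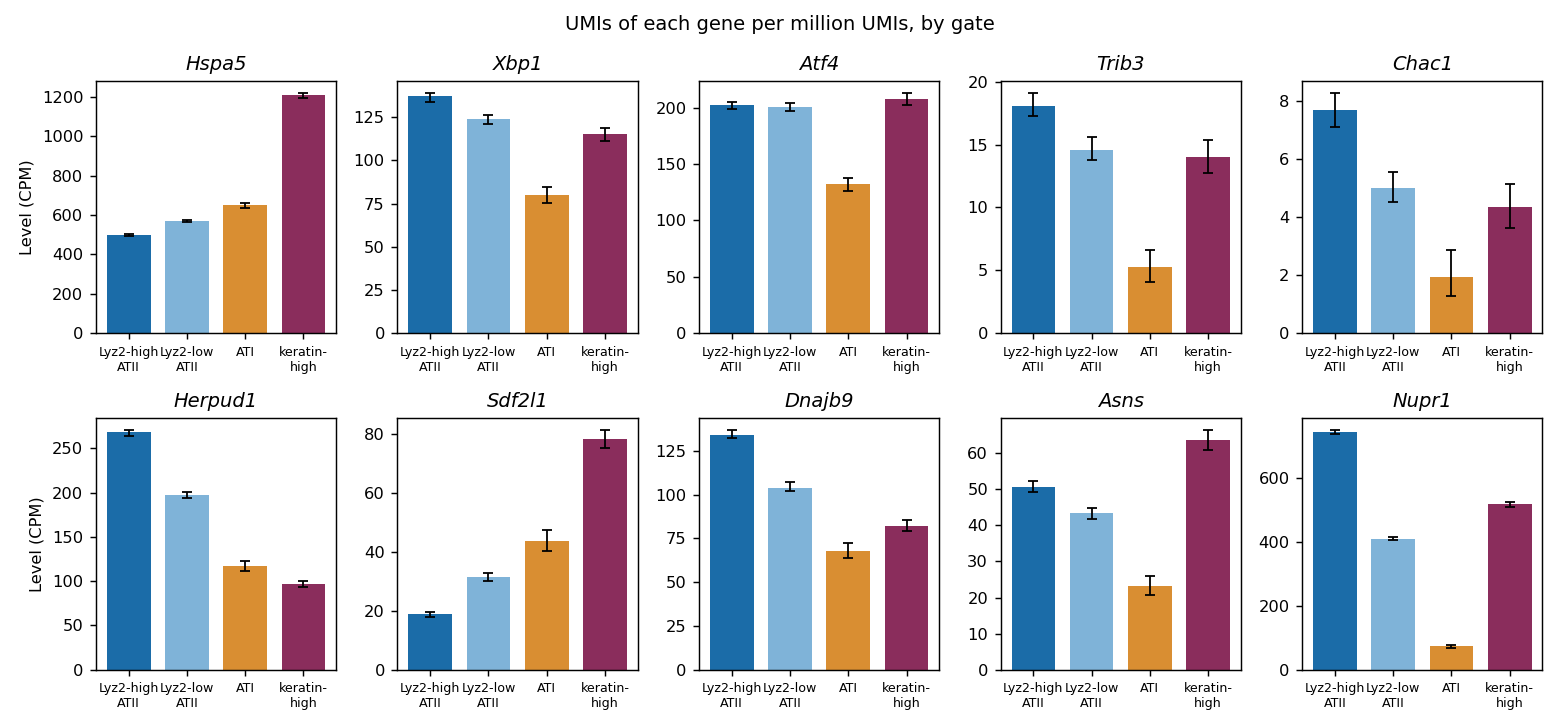
Level of each gene in CPM (vertical axis, starting at 0 and scaled per gene) in the 4 gates; bars are CPM over all cells of a gate and black lines are 95% Poisson intervals. Hspa5 and Sdf2l1 are highest in the keratin-high gate, Herpud1 is lowest there, and Nupr1 runs from 74.1 CPM in ATI to 747 CPM in Lyz2-high ATII cells.

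Lyz2, which encodes a lysozyme of ATII and myeloid cells, was 21825 CPM in Lyz2-high and 3657 CPM in Lyz2-low ATII cells. Among the 9 genes at 10 CPM or more in either gate, Sdf2l1 was at least 1.5-fold higher in Lyz2-low than in Lyz2-high ATII cells, at 1.68-fold (1.58 to 1.79), and Nupr1 was at least 1.5-fold lower, at 1.82-fold (1.79 to 1.84). Of 7684 genes past the same minimum, 3.81% were at least 1.5-fold higher and 0.963% at least 1.5-fold lower. The other 7 genes lay between, from Herpud1 at 1.36-fold lower to Hspa5 at 1.14-fold higher. The median log2 ratio was -0.23 over the 9 genes and 0.19 over all genes, so that Hspa5 stood level with the median gene (0.00 relative to it) Atf4 below it (-0.20) and Sdf2l1 0.56 above it, under the 1.5-fold size. Chac1, under the minimum, was 1.53-fold lower (1.34 to 1.74). The 2 cycling markers moved with the split, with Mki67 at 21.6 CPM in Lyz2-low and 5.74 CPM in Lyz2-high cells, as did 5 of 5 fibroblast markers (53.8 against 11.9 CPM summed). Also higher in Lyz2-low cells were 6 of 6 transitional markers (1871 against 1214 CPM summed), 10 of 10 ATI markers (2636 against 1825) and Hspa1a (806 against 455). The counts were again 1 higher and 1 lower without cells holding an Mki67 or Top2a UMI, with Sdf2l1 at 0.61 and Nupr1 at -0.79 on the log2 scale, and without cells holding a stromal or immune marker UMI, at 0.76 and -0.84. With the Lyz2 split at 200 both fell under the 1.5-fold size, at 0.36 and -0.51, and in cells without a Hspa1a or Hspa1b UMI they did so too, at 0.43 and -0.56.

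Cells of the ATI gate had less of most of the panel than ATII cells. Of 9 genes, 7 were at least 1.5-fold lower and 1, Sdf2l1, was higher, at 1.79-fold (1.64 to 1.95). Among 8309 genes the shares were 9.04% lower and 31.1% higher. Nupr1 was 8.02-fold lower (7.54 to 8.55), Trib3 3.16-fold (2.49 to 4.06), Asns 2.04-fold (1.82 to 2.30) and Herpud1 2.01-fold (1.91 to 2.12). Trib3, at 5.25 CPM in ATI and 16.6 in ATII cells, reached 10 CPM only in ATII cells and could be called only lower. Dnajb9, Xbp1 and Atf4 followed at 1.77-fold, 1.64-fold and 1.53-fold lower. Surfactant transcripts take a large share of the UMIs of ATII cells, and the median gene was 0.38 higher in ATI cells on the log2 scale. Relative to that gene the 7 remained lower, Hspa5 moved from 0.29 above to -0.09, and Sdf2l1 stood at 0.46, below the 1.5-fold size. ATI cells were also the shallowest, and with each cell thinned to 5000 UMIs neither Sdf2l1 (0.56) nor Atf4 (-0.56) passed 1.5-fold. Markers of other cells and of division moved with the gate, with the 2 cycling markers at 1.95 CPM against 24.8 summed, 5 fibroblast markers at 9.82 against 30.9, 2 club cell markers at 30.9 against 80.9 and 2 ciliated cell markers at 138 against 25.3, and their part in these ratios was not tested.

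Other genes of these pathways were taken from 4 lists. In the ATI gate none of 23 ER chaperone and ERAD genes at 10 CPM or more was 1.5-fold higher and 2 were lower, Sec61b (244 CPM against 392) and Edem1 (16.9 against 26.4). Of 11 ATF4 and CHOP targets, 1 was higher and 3 were lower, among them Gdf15 (19.1 CPM against 71.2) and Atf5 (31.6 against 114), a factor induced alongside ATF4. Of 16 genes of amino acid synthesis and supply, 1 was higher and 4 lower, including Cth, which makes cysteine (4.27 CPM against 30.7), and the leucine carrier subunit Slc7a5 (1.80 against 11.4). Cth and Slc7a5 reached 10 CPM only in the ATII gate, so they could be called only lower. Of 10 sensors and transcription factors, 2 were higher and 2 lower. Creb3l2 was higher, at 77.0 CPM against 35.3, and Creb3l1 lower, at 5.10 against 44.1, also with 10 CPM reached only in the ATII gate. The list medians were 0.02, -0.29, -0.24 and 0.21 on the log2 scale, in that order, beside 0.38 for all genes, of which 31.1% were higher and 9.04% lower by 1.5-fold.

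Keratin-high cells differed from ATII cells in a few genes, and in both directions. The counts did not stand out from the shares over all genes. Of 9 genes, 2 were at least 1.5-fold higher, Sdf2l1 at 3.19-fold (3.03 to 3.36) and Hspa5 at 2.27-fold (2.24 to 2.30), and 1 was lower, Herpud1 at 2.44-fold (2.35 to 2.53). Among 8369 genes, 34.7% were higher and 8.63% lower by that size, and the median gene was 0.39 higher on the log2 scale. Relative to the median gene, Sdf2l1 was 1.29 and Hspa5 0.80 higher, while Herpud1 was at -1.67, Dnajb9 at -0.94 and Trib3 at -0.63. The log2 ratio of Trib3 itself was -0.24 and turned to 0.59 in cells without a Hspa1a or Hspa1b UMI. Asns, at 1.34-fold (1.28 to 1.41), stood level with the median gene at 0.04, and Atf4 went from 0.04 to -0.34. Nupr1 was 1.15-fold lower (1.13 to 1.17) with its UMIs in the minority of cells given above, and its log2 ratio of -0.20 turned to 0.23 at a keratin limit of 100 and was -1.09 in cells without a Hspa1a or Hspa1b UMI. Other markers differed too, with 2 club cell markers at 8.02 CPM against 80.9 summed, 5 fibroblast markers at 10.6 against 30.9, 2 ciliated cell markers at 286 against 25.3 (nearly all of it Tppp3, with Foxj1 at 0.359 CPM) and Hspa1a at 921 against 615.

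The chaperone list stood near the background of this comparison. Of its 23 tested genes 8 were at least 1.5-fold higher in keratin-high than in ATII cells, where 34.7% of all genes were, and none was lower, with a median log2 ratio of 0.46 beside 0.39 for all genes. The calcium-binding chaperone Calr was 638 CPM against 281, the disulfide isomerase Pdia3 690 against 336, and Creld2, a gene induced by ER stress, 66.9 against 35.3. Of 17 amino acid genes 7 were higher and 2 lower, also with a median of 0.46. The serine synthesis genes Phgdh (80.8 CPM against 32.4) and Psat1 (32.5 against 12.5) were higher. Cth was lower, at 2.61 CPM against 30.7, and reached 10 CPM only in the ATII gate. Of 11 ATF4 and CHOP targets 1 was higher and 3 were lower, namely Vldlr (13.1 CPM against 33.1), Sesn2 (19.4 against 35.0) and Atf5 (65.8 against 114). Of 10 sensors and factors, Atf6 (36.2 CPM against 21.0) and Atf6b (37.2 against 24.0) were higher and Creb3l1 (16.8 against 44.1) lower. Over all genes 34.7% were higher and 8.63% lower by that size.

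Against ATI cells, the keratin-high gate was higher for most of the panel. Of 9 genes, 6 were at least 1.5-fold higher and 0 lower, while 12.1% of 8460 genes were higher and 9.96% lower, and the median gene was at 0.01. Nupr1, at 519 CPM against 74.1, was higher by 6.56-fold to 7.47-fold, Asns 2.75-fold (2.44 to 3.11), Trib3 2.67-fold (2.07 to 3.48), Hspa5 1.86-fold (1.82 to 1.91), Sdf2l1 1.79-fold (1.63 to 1.96) and Atf4 1.58-fold (1.49 to 1.66). Trib3, at 14.0 CPM against 5.25, reached 10 CPM only in the keratin-high gate and could be called only higher. Herpud1 was the exception in direction, at 1.21-fold lower (1.14 to 1.29). In the lists, 9 of 23 chaperone genes and 9 of 15 amino acid genes were higher and none lower, with Phgdh at 80.8 CPM against 22.6, Mthfd2 at 44.2 against 12.7 and Manf at 324 against 178. Of 11 ATF4 and CHOP targets 3 were higher, including Gdf15 (66.5 CPM against 19.1), Atf5 (65.8 against 31.6) and Atf3 (1253 against 630), and 2 were lower. Median depth differed between these 2 gates, at 23490 and 11796 UMIs, as did the cycling markers, at 20.8 and 1.95 CPM summed. Hspa1a was 921 CPM against 514, 2 club cell markers summed to 8.02 against 30.9 and 2 ciliated cell markers to 286 against 138. Their part in these ratios was not tested. With cells thinned to 5000 UMIs Atf4 fell under the 1.5-fold size, at 0.54 on the log2 scale, and Xbp1 passed it, at 0.62. Without cells holding an Mki67 or Top2a UMI the 6 genes stayed past it, with Atf4 at 0.62.

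**Figure D2:**
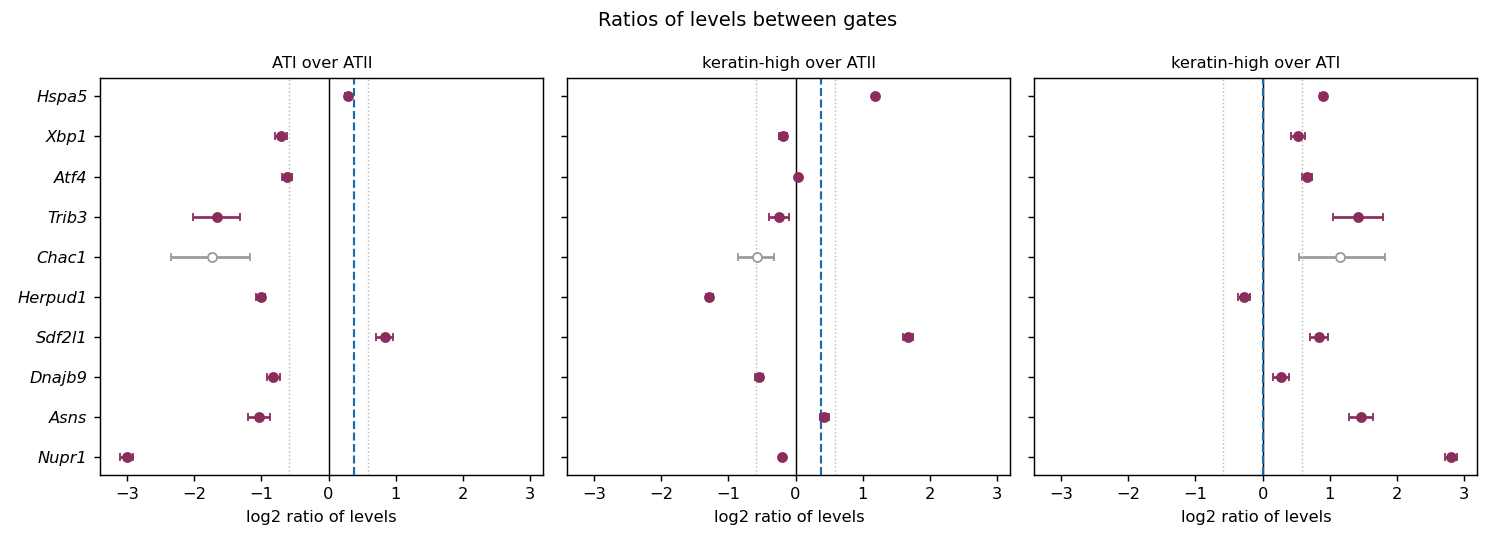
Log2 ratio of levels between gates for each gene (horizontal axis), with 95% counting intervals; the dashed blue line is the median of all genes, dotted lines mark 1.5-fold and the open grey point is Chac1, under 10 CPM. Nupr1 is the leftmost gene in ATI over ATII cells, at 8.02-fold lower, and the rightmost in keratin-high over ATI cells, at 519 CPM against 74.1, while Hspa5 and Sdf2l1 lie to the right of the median line in both keratin-high panels.

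The GFP-positive and Stk11-positive cells of each gate were compared, and cells with neither or both transcripts stayed out of the ratios. Nupr1 was lower in GFP-positive than in Stk11-positive cells of all 4 gates. It was 356 CPM against 895 in Lyz2-high ATII, or 2.51-fold lower (2.45 to 2.58), and 181 against 685 in Lyz2-low ATII, or 3.79-fold lower (3.67 to 3.91). In the ATI gate it was 20.9 CPM against 143, or 6.83-fold lower (5.48 to 8.61), from 91 and 629 UMIs. In that gate 11 of 11 ATII markers were lower in GFP-positive cells, at 49592 CPM against 80025 summed, with Lyz2 at 295 against 1584, and the 2 club cell markers summed to 3.21 against 49.2, and their part in the Nupr1 gap was not tested. In the keratin-high gate Nupr1 was 452 CPM against 716, or 1.58-fold lower (1.52 to 1.65). The classes held 642 and 165 cells there, and the spread between cells is not in that interval. Cells with neither transcript lay between the classes in every gate, at 782, 462, 58.9 and 586 CPM in the same order of gates. The median Lyz2-low ATII cell held 69.8 CPM of Nupr1 in the GFP-positive class and 457 CPM in the Stk11-positive class.

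Herpud1 was next to Nupr1 among the tested genes of the Lyz2-high ATII gate. It was 178 CPM in GFP-positive and 309 in Stk11-positive Lyz2-high ATII cells, or 1.73-fold lower (1.67 to 1.80), and 147 against 273 in Lyz2-low ATII cells, or 1.85-fold lower (1.78 to 1.93). Outside ATII the gap was small, at 113 CPM against 134 in ATI and 93.6 against 106 in keratin-high cells. Asns was 41.8 CPM against 57.9 in Lyz2-high ATII, 1.39-fold lower (1.28 to 1.51), and 31.3 against 65.5 in Lyz2-low ATII, 2.09-fold lower (1.92 to 2.28). In ATI cells Asns was 22.2 CPM against 27.9, with an interval of the ratio that held 1, and in keratin-high cells 64.3 against 78.6. At a keratin limit of 100 Herpud1 and Asns were both higher in GFP-positive keratin-high cells, at 0.45 on the log2 scale. Whether the gaps differ between gates was not tested.

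Trib3 and Chac1 were low genes that leaned the same way in ATII cells. Trib3 was 14.2 CPM against 20.7 in Lyz2-high and 12.2 against 17.8 in Lyz2-low ATII cells, 1.46-fold lower in both. Chac1, under the 10 CPM minimum, was 5.61 CPM against 9.30 and 3.89 against 8.20, or 1.66-fold (1.33 to 2.08) and 2.11-fold (1.65 to 2.70) lower. In the ATI gate Chac1 had 2 UMIs in GFP-positive and 20 in Stk11-positive cells, a ratio of 0.101 (0.0115 to 0.416). In the keratin-high gate the intervals of both genes' ratios held 1.

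Among the chaperone genes and factors the direction was mixed. Hspa5 was 549 CPM in GFP-positive and 506 in Stk11-positive Lyz2-high ATII cells, 647 against 509 in Lyz2-low ATII, 728 against 659 in ATI and 1235 against 1189 in keratin-high cells. Its ratios, 1.09, 1.27, 1.11 and 1.04, were all under 1.5-fold. The direction turned in each gate under at least 1 setting: its log2 ratio was -0.14 in Lyz2-high ATII cells at or under the median Hspa1a and Hspa1b level, -0.08 in Lyz2-low ATII and -0.31 in ATI cells without a Hspa1a or Hspa1b UMI, and -0.22 in keratin-high cells of 10000 to 40000 UMIs. Xbp1 was 1.29-fold (1.23 to 1.35) and 1.21-fold (1.15 to 1.28) higher in GFP-positive cells of the 2 ATII gates. Atf4 lay at 1.02 (0.979 to 1.06), 0.946 (0.909 to 0.985), 1.14 (1.01 to 1.28) and 1.18 (1.10 to 1.28) across the gates. Sdf2l1 was higher in GFP-positive ATII cells, at 36.7 CPM against 25.4 in the Lyz2-low gate, and lower in GFP-positive keratin-high cells, at 75.2 against 95.0, while the interval of its ratio held 1 in ATI cells. Among cells at or under the median Hspa1a and Hspa1b level, its log2 ratio was 0.03 in the Lyz2-high ATII gate and 0.01 in the keratin-high gate. Dnajb9 was 1.10-fold lower (1.05 to 1.15) in Lyz2-high ATII, 1.24-fold (1.17 to 1.31) in Lyz2-low ATII and 1.45-fold (1.23 to 1.71) in ATI cells, and the interval of its ratio held 1 in keratin-high cells.

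By the size rule, 0 of 9 genes were at least 1.5-fold higher and 2, Nupr1 and Herpud1, lower in GFP-positive Lyz2-high ATII cells, where 4.36% of genes were higher and 1.54% lower. In Lyz2-low ATII cells 0 were higher and 3 lower (Nupr1, Herpud1 and Asns), beside 5.62% and 2.07% of genes. Sdf2l1, at 0.53 on the log2 scale there, ran from 0.23 to 1.61 over 20 settings and was past 1.5-fold higher in 8 of them. In ATI cells 0 of 8 were higher and 1, Nupr1, lower, beside 7.03% and 3.22%. In keratin-high cells 0 of 9 were higher and 1, Nupr1, lower, beside 6.07% and 5.58%. Over all gates together, where the classes differ in their mix of gates, Sdf2l1 was 1.63-fold higher and Nupr1 (2.67-fold) and Herpud1 (1.99-fold) were lower, beside 9.33% of genes higher and 2.18% lower. The median gene was 0.23 higher in GFP-positive cells over all gates on the log2 scale, and relative to it Xbp1 turned from 0.19 to -0.04, Atf4 from 0.01 to -0.22, and Sdf2l1 stood at 0.48, under the 1.5-fold size. The counts relative to the median gene were 0 higher and 5 lower, with Trib3 (-0.73), Asns (-0.71) and Dnajb9 (-0.62) added to Nupr1 and Herpud1. Within gates that shift was 0.02 to 0.15; it turned Atf4 in Lyz2-high ATII cells from 0.02 to -0.08, and Nupr1 relative to it was -1.44, -2.07, -2.89 and -0.68 in the order given above.

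**Figure D3:**
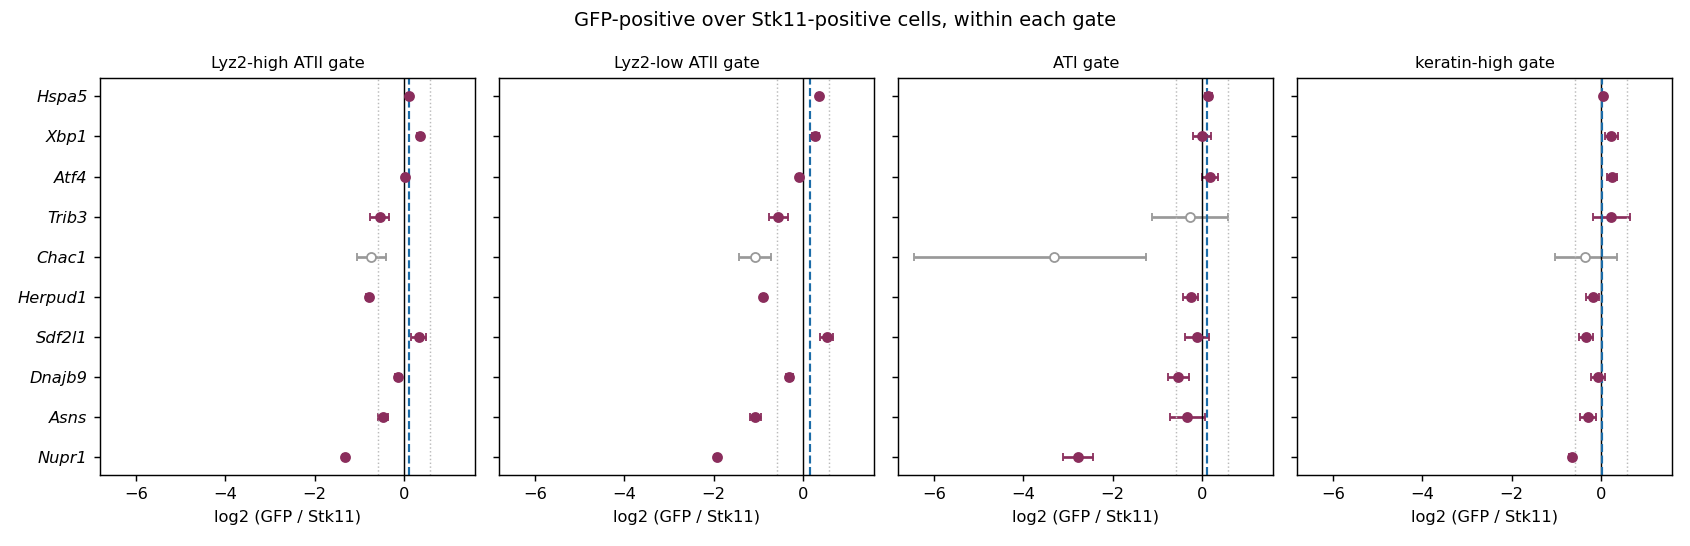
Log2 ratio of GFP-positive over Stk11-positive cells (horizontal axis) for each gene within each gate, with 95% counting intervals; open grey points are genes under 10 CPM, the dashed blue line is the median of all genes and dotted lines mark 1.5-fold. Nupr1 lies left of the lower dotted line in each panel, Herpud1 does so in the 2 ATII panels, and Hspa5, Xbp1 and Atf4 stay within the dotted lines.

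Depth and other markers moved with the classes. Median depth was 28926 UMIs in GFP-positive and 26552 in Stk11-positive Lyz2-high ATII cells, and 23476 and 22111 in the Lyz2-low gate. The heat shock gene Hspa1a, 1 of 9 dissociation and immediate early markers, was 724 CPM against 339 in Lyz2-high, 1068 against 456 in Lyz2-low ATII, 534 against 414 in ATI and 955 against 698 in keratin-high cells. The 9 markers together had no such gap: over all gates 4 were higher and 5 lower in GFP-positive cells, at 10970 CPM against 10998 summed, and in the ATI gate 7 of 9 were lower, at 8631 against 10838. The 2 cycling markers summed to 21.5 CPM against 9.42 and 75.6 against 22.0 in the ATII gates, and 5 of 5 fibroblast markers were lower in GFP-positive cells there, at 7.42 CPM against 17.7 and 29.1 against 140 summed. The 6 transitional markers, keratins included, summed to 1743 CPM against 1031 and 2365 against 1293 in the ATII gates, and the 2 club cell markers to 25.9 against 78.8 and 22.9 against 98.9. Among cells at or under the median Hspa1a plus Hspa1b level, the log2 ratio of Nupr1 was -1.33, -2.17, -2.60 and -0.45 in the 4 gates, so that the keratin-high value fell under 1.5-fold. With 2 UMIs required for a class it was -1.38, -1.82, -2.32 and -0.33, and the keratin-high value again fell under 1.5-fold. Without cells holding a stromal or immune marker UMI it was -1.30, -1.88, -2.82 and -0.74, and without cells holding an Mki67 or Top2a UMI -1.33, -1.87, -2.70 and -0.62. In cells of 10000 to 40000 UMIs it was -1.36, -2.00, -2.75 and -1.13. In cells without a Hspa1a or Hspa1b UMI it was -2.24 in Lyz2-low ATII and -5.70 in ATI cells, the latter from 55 and 60 cells.

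Lyz2 itself differed between classes, at 20052 CPM in GFP-positive and 22733 in Stk11-positive cells of the Lyz2-high gate and 3182 against 4503 in the Lyz2-low gate, so both ATII gates were cut into 6 Lyz2 bands. In cells with fewer than 25 Lyz2 UMIs per 10000, Nupr1 was 120 CPM in 617 GFP-positive and 550 CPM in 308 Stk11-positive cells, 4.57-fold apart (4.32 to 4.83). The gap was 3.09-fold (2.88 to 3.32) from 25 to 50. It was 2.87-fold to 3.15-fold from 50 to 100, where the levels were 267 and 804 CPM. It was 2.92-fold (2.82 to 3.03) from 100 to 200 and 2.16-fold (2.07 to 2.24) from 200 to 400. In the band above 400, with 18 GFP-positive and 78 Stk11-positive cells, it was 1.98-fold (1.71 to 2.30). Nupr1 was thus lower in GFP-positive cells of all 6 bands, and its intervals did not overlap between the lowest band and any other.

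Herpud1 kept a near-even gap over the bands, from 1.68-fold to 1.85-fold in the 5 bands below 400 and 2.17-fold (1.72 to 2.79) above it. Asns was 2.39-fold (2.09 to 2.74) lower in GFP-positive cells of the lowest band and 1.35-fold lower from 100 to 200, at 48.2 CPM against 65.1. The Asns gap had no even course, at 1.52-fold (1.33 to 1.75) from 200 to 400 and 3.15-fold (1.47 to 8.05) above 400. Atf4 differed by at most 1.12-fold in any band, and the intervals of its ratio held 1 in 6 of 6 bands. Xbp1 ran the other way, with Stk11-positive over GFP-positive ratios of 0.770 to 0.846 in the bands below 400. Hspa5 was 723 CPM in GFP-positive and 504 in Stk11-positive cells of the lowest band, and 540 against 510 from 200 to 400. Above 400 it was 442 CPM against 539, the other way. Stk11-positive over GFP-positive ratios of Sdf2l1 were 1.07 (0.873 to 1.30) from 50 to 100 and 1.80 (0.820 to 4.70) above 400. In the other bands they lay between 0.646 and 0.764.

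**Figure D4:**
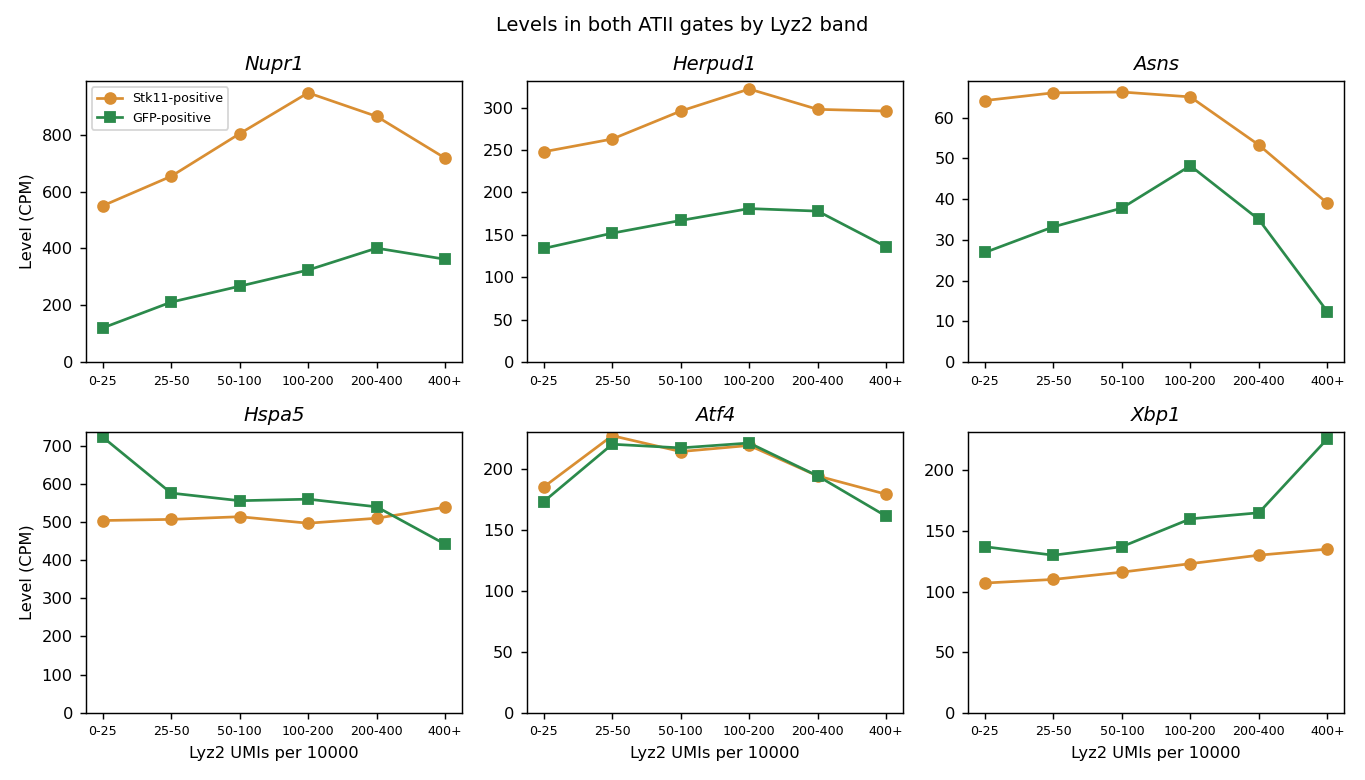
Levels in CPM (vertical axis from 0, scaled per gene) of 6 genes in GFP-positive (green squares) and Stk11-positive cells (orange circles) of both ATII gates, by Lyz2 UMIs per 10000 (horizontal axis, bands of unequal width). Nupr1, Herpud1 and Asns are lower in the GFP-positive class in each band, the 2 Atf4 lines lie close to each other, and the last band holds only 18 GFP-positive cells.

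Pathway genes outside the panel were compared between the classes in the same way. Over all gates Atf5 was 65.5 CPM in GFP-positive against 142 in Stk11-positive cells, a ratio of 0.459 (0.444 to 0.476). Within gates Atf5 was 71.4 CPM against 150 in Lyz2-high ATII, 69.5 against 160 in Lyz2-low ATII and 18.1 against 48.0 in ATI cells. In keratin-high cells the gap was under the 1.5-fold size, at 64.5 CPM against 85.7. Ddit4, a hypoxia- and stress-induced inhibitor of mTORC1, ran the other way in ATII cells, at 110 CPM against 63.7 and 119 against 70.8. The counts for the ATF4 and CHOP list of 11 tested genes were 1 higher and 3 lower in Lyz2-high ATII, 1 and 1 in Lyz2-low ATII, 0 and 3 in ATI and 1 and 2 in keratin-high cells, with medians of -0.13, -0.09, -0.33 and -0.26. Over all genes the shares higher and lower were 4.36% and 1.54%, 5.62% and 2.07%, 7.03% and 3.22%, and 6.07% and 5.58% in these gates, with medians of 0.11, 0.15, 0.12 and 0.02. Vldlr was lower in GFP-positive ATI cells, at 16.5 CPM against 30.4, and 2.61-fold higher (1.74 to 4.06) in GFP-positive keratin-high cells. It is the 1 gene of the list counted as higher in the keratin-high gate. There Vldlr reached 10 CPM only in the GFP-positive class and could be called only higher, so whether its direction differs between gates was not tested. Among the sensors and factors, 2 of 9 were past 1.5-fold in keratin-high cells, both higher, Creb3l1 (19.8 CPM against 5.38) and Eif2ak4, which encodes GCN2 (15.6 against 9.48), and none in the other 3 gates. Both reached 10 CPM in that gate only in the GFP-positive class, so they could be called only higher. The Stk11-positive levels there, that of Vldlr included, come from 165 cells. In the chaperone list of 23 none was past 1.5-fold in 3 gates and 1 was lower in ATI cells, and medians lay between 0.08 and 0.13. Calr had the largest ratio of that list in both ATII gates, at 292 CPM against 232 and 379 against 258. Among 14 or 15 amino acid genes tested in each gate, 1 was lower (Cth, in Lyz2-low ATII cells, 15.9 CPM against 24.7) and none higher.

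Whether the genes were found in the same cells was read after thinning each cell to 5000 UMIs, so that depth was shared. The correlations are across cells of 1 gate in 1 matrix and are given as description. The highest mean over the 4 gates was between Hspa5 and Sdf2l1, with Pearson's r of 0.14 in 3392 Lyz2-high ATII, 0.29 in 3380 Lyz2-low ATII, 0.33 in 841 ATI and 0.41 in 1090 keratin-high cells. Herpud1 and Nupr1 followed at 0.27, 0.29, 0.20 and 0.11, and Trib3 and Nupr1 at 0.13, 0.17, 0.32 and 0.22. Hspa5 and Nupr1, which have the most UMIs of the panel, stood at -0.05, -0.11, 0.03 and 0.09. The other pairs averaged 0.17 or less over the gates, which in counts this sparse is no finding.

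**Figure D5:**
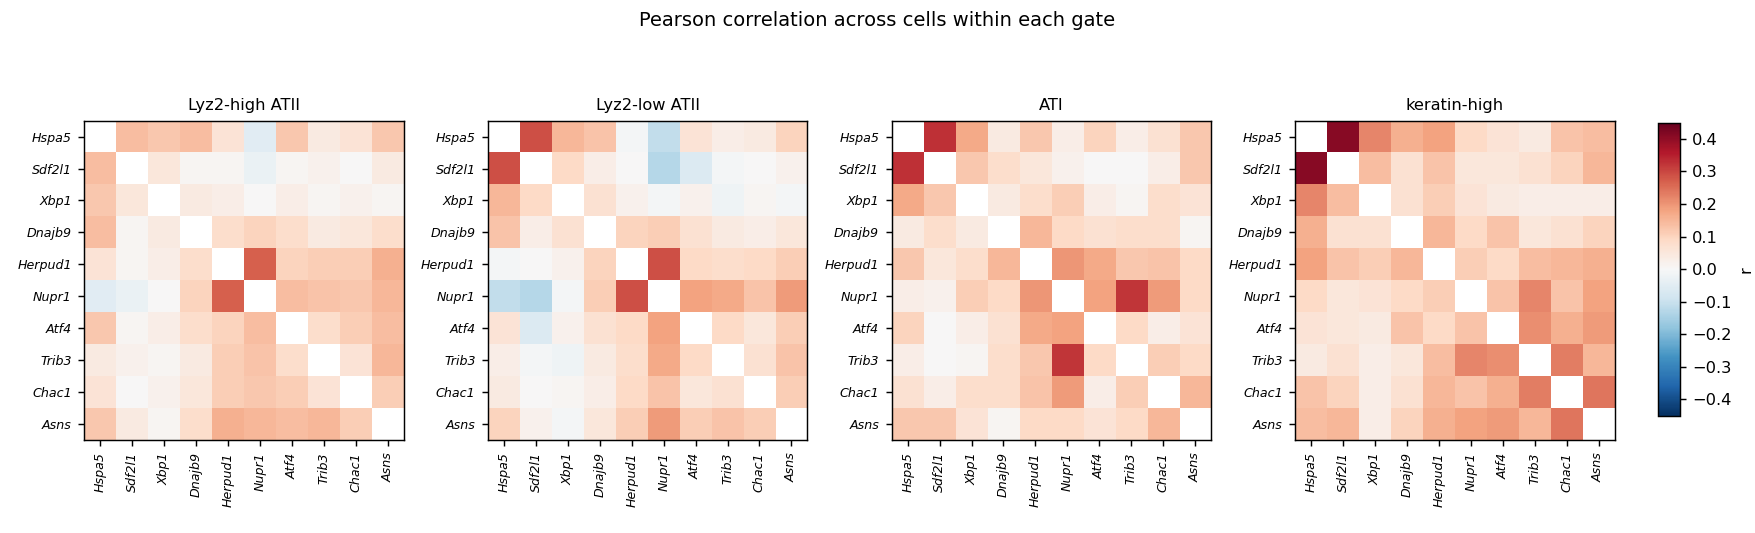
Pearson's r across cells (color scale) for each pair of genes within each gate, after thinning to 5000 UMIs per cell; the diagonal is left blank. Hspa5 with Sdf2l1 is the deepest red pair in the Lyz2-low ATII, ATI and keratin-high panels at 0.29, 0.33 and 0.41, except that Herpud1 with Nupr1 equals it at 0.29 in Lyz2-low ATII.

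Cells with a Sdf2l1 UMI held more Hspa5. In the keratin-high gate the 234 cells with such a UMI had 2046 CPM of Hspa5 and the 856 without it 760 CPM, a ratio of 2.69 (2.55 to 2.84), while Nupr1 was 457 against 466 and Atf4 213 against 201. The Hspa5 ratio was 1.53, 2.39 and 2.68 in Lyz2-high ATII, Lyz2-low ATII and ATI cells. Nupr1 had no single direction in cells with a Sdf2l1 UMI, at 719 CPM against 797 in Lyz2-high ATII, 226 against 464 in Lyz2-low ATII and 111 against 48.5 in ATI cells, and the Atf4 ratio was 0.821 (0.726 to 0.925) in Lyz2-low ATII cells. Cells with an Asns UMI held more of several genes, Hspa5 among them. In the Lyz2-high ATII gate the 594 such cells had 574 CPM of Hspa5 against 453 in the 2798 others, 35.7 CPM of Trib3 against 13.7, Chac1 at 3.23-fold (2.19 to 4.73) their level and 1076 CPM of Nupr1 against 730, and Xbp1 was 141 against 133. In the keratin-high gate the 224 cells with an Asns UMI had 15.2 CPM of Chac1 against 1.15, 292 CPM of Atf4 against 181 and 1555 CPM of Hspa5 against 901. The Chac1 values rest on few UMIs, as only 19 cells of that gate held one. Chac1 marked few cells but wide ratios: the 19 keratin-high cells with a UMI had 4326 CPM of Hspa5 against 977, 642 CPM of Atf4 against 196, 400 CPM of Asns against 56.0 and 432 CPM of Herpud1 against 92.6, and in the Lyz2-high ATII gate the 111 such cells had 625 CPM of Hspa5 against 469. The intervals count UMIs and not cells, so values from 19 cells carry a spread between cells that the intervals do not show.

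The 6597 genes with a UMI in at least 5% of thinned cells of every gate were ranked by their mean within-gate correlation with 2 sums. For the sum of Hspa5, Herpud1, Sdf2l1, Dnajb9 and Xbp1, the 5 closest genes were Manf (mean r 0.37), Calr (0.36), Hsp90b1 (0.34), Pdia6 (0.32) and Pdia3 (0.30). Each of the 5 was lowest in Lyz2-high ATII and highest in keratin-high cells, as for Calr at 0.19 and 0.51. For the sum of Atf4, Trib3, Chac1, Asns and Nupr1 they were Atf5 (0.28), Eif4ebp1 (0.24), Phgdh (0.17), Gadd45a (0.16) and Sars (0.16). The means of Phgdh, Gadd45a and Sars are as low as those of the pairs passed over above, and are given as a ranking only. Genes with more UMIs weigh more in these sums.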

How the data were processed

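Single-cell RNA was captured with the 10x 3′ v3 kit. The authors aligned and counted with Cell Ranger 3.0.2 on mm10 (annotation release not given in the sources used here) and deposited 1 matrix of UMI counts, 266713311 in all over 16017 cells, with a table of feature names. No map from cells to mice was among the files used here. Cell barcodes were not analysed here, so barcodes shared between libraries were not counted, and doublets were not called.

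Levels were UMIs of a gene summed over the cells of a group, per 1000000 UMIs of the group, with exact Poisson intervals. Ratios had exact conditional binomial intervals and shares exact Clopper-Pearson intervals, all at 95% and for counting error only. No test was run on 1 pooled sample. A gene was tested against the size of 1.5-fold where either group reached 10 CPM. A gene that reached it in a single group could be called only in that group's direction. Thinning drew 5000 UMIs per cell, and 411 shallower gated cells were left out. The 10 genes, the gates, the pathway lists and the markers were chosen with earlier results of these data known. Named pathway genes were drawn from the 3 of each list with the largest ratio per comparison at 10 CPM or more, a rule written for gates and extended to the GFP and Stk11 classes. The 5 genes closest to each sum were taken by mean within-gate correlation. A planned edgeR test of Restored against NonRestored mice was not run. Of 31055 feature identifiers, 30934 (99.6%) matched GENCODE M21, and promoters came from RefSeq tables of GRCm38.p6. The code was tested on simulated counts. Intervals came from scipy 1.17.1, figures from matplotlib 3.10.9 and tables from pandas 2.3.3 with numpy 2.4.6, in Python 3.11.15. The closing section gives 21 alternatives.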

Additional observations from a re-analysis of the deposited data

How the results depend on the processing

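No paired analysis was possible because the cells carry no mouse. Over 21 alternatives, 302 of 358 counts of genes past 1.5-fold stayed within 1.5 times the reported count, 56 moved and 0 member ratios past 1.5-fold reversed. At 2-fold the counts were 0 higher and 0 lower for Lyz2-low over Lyz2-high ATII, 0 higher and 4 lower for ATI over ATII, 3 higher for keratin-high over ATI, and for GFP over Stk11 0 higher and 1 lower over all gates, 1 lower in Lyz2-high ATII and 0 lower in keratin-high cells. Relative to the median gene they were 0 and 2 for Lyz2-low over Lyz2-high, 0 higher for ATI over ATII, 3 lower for keratin-high over ATII, and for GFP over Stk11 0 and 5 over all gates and 2 lower in ATI cells. Without surfactant, lysozyme and mitochondrial genes in the denominator they were 2 lower for Lyz2-low over Lyz2-high, 0 higher for ATI over ATII, 2 lower for keratin-high over ATII, and for GFP over Stk11 0 and 5 over all gates, 4 lower in Lyz2-high and 5 lower in Lyz2-low ATII. Thinned to 5000 UMIs they were 0 higher for ATI over ATII, 2 lower for keratin-high over ATII, and for GFP over Stk11 1 higher in Lyz2-low ATII and 2 lower in keratin-high cells. Lower counts for keratin-high over ATII were 2 at keratin limits of 30 and 100. A Hopx minimum of 30 gave 0 higher for ATI over ATII. A Lyz2 split at 200 gave 0 and 0 for Lyz2-low over Lyz2-high. For GFP over Stk11 in Lyz2-low ATII, 1 gene was higher with the split at 50 or 200, without the 6% of cells with the most UMIs, in cells of 10000 to 40000 UMIs and with the mean of per-cell levels. For ATI cells 2 were lower with 2 UMIs required, in 10000 to 40000 UMIs, at a keratin limit of 30 and with no CPM minimum, which also gave 2 lower for Lyz2-low over Lyz2-high. For keratin-high cells 0 were lower with 2 UMIs required and 2 in 10000 to 40000 UMIs, and over all gates 4 were lower at a keratin limit of 100.

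Of the alternatives, 3 were chosen after seeing the data, and the cause of their effects was not tested. In cells at or under the median Hspa1a and Hspa1b level, 2 were lower for keratin-high over ATII, and for GFP over Stk11 5 were lower in Lyz2-high ATII, 1 higher in Lyz2-low ATII, 2 lower in ATI and 0 lower in keratin-high cells. In cells without a Hspa1a or Hspa1b UMI the counts were 0 higher for Lyz2-low over Lyz2-high, 3 lower for keratin-high over ATII, and for GFP over Stk11 5 lower over all gates, 1 higher and 5 lower in Lyz2-low ATII (66 and 140 cells) and 7 lower in ATI cells (55 and 60 cells); the other 2 gates had fewer than 50 cells in a class and gave no value. Leaving out cells with an Mki67 or Top2a UMI moved no count.

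Depth limits Chac1 and Trib3 in ATI cells most, where 26 and 70 UMIs stand behind the levels. Chac1 had no UMI in GFP-positive ATI cells with a Hopx minimum of 30 or without a Hspa1a or Hspa1b UMI, and no ratio is given there.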
